A study of Mus musculus with 12 samples.

Results

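Wide peaks of histone H3 lysine 36 dimethylation (H3K36me2) are described here, selected on their measured width, as all rows of the deposited cKO and Ctrl peak lists that span 500 bp or more on chromosomes 1 to 19, X or Y. There were 334 of them among 3722 peaks. The cKO list held 287 wide peaks among 3491 (8.22%, Wilson 95% interval 7.36 to 9.18) and the Ctrl list held 47 among 231 (20.3%, 15.7 to 26.0). The lists came from chromatin immunoprecipitation and sequencing of somatosensory cortex from mice 2.5 months old. The cKO group carried the genotype Nsd1Nex-cKO, with 3 H3K36me2 libraries and 3 input libraries. The Ctrl group had the same numbers, with 2 libraries of each kind labelled Nsd1fl/+ and 1 labelled Nsd1fl/fl, so every control carried at least 1 floxed allele of Nsd1. The Nex promoter drives Cre in excitatory neurons of the dorsal forebrain once they stop dividing, so interneurons, glia and vessels of the dissected cortex keep Nsd1. Each list was named by all 6 libraries of its genotype, and neither carries values per replicate. Intervals on shares therefore cover counting error only, treat neighbouring peaks as independent, and no test between genotypes was made.

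H3K36me2 is laid down by methyltransferases of the NSD family and ASH1L, and it usually covers long domains inside active genes and between genes rather than sharp sites. It is read by proteins that include the DNA methyltransferase DNMT3A, and it opposes the repressive mark H3K27me3. NSD1, named after its nuclear receptor binding and SET domains, is one of the main writers of the mark. The widest peak of either list spanned 2360 bp.

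A promoter window ran from 250 bp before to 50 bp after a start listed for a RefSeq gene (GRCm38.p6, with the same chromosome coordinates as mm10). Such a window was overlapped by 7 of 287 wide cKO peaks (2.44%, against 0.63% of the whole cKO list). In the Ctrl list 1 of 47 wide peaks overlapped one (2.13%, against 1.73% of the whole Ctrl list). A longer interval meets a window more easily. The promoter table held 32851 windows. Shown first are the promoter of C130026I21Rik, the one such window reached by a wide peak in both lists (chr1:85270517-85270816, minus strand), and that of Gm21083 in a cluster of Speer4 genes (chr5:15577043-15577342, plus strand). Gm15319 on chromosome 8 (chr8:20363153-20363452, minus strand), Gm33862, a noncoding RNA gene inside Sfi1 (chr11:3136826-3137125, plus strand), and Hhipl2 (chr1:183418998-183419297, plus strand), which lies far from other peaks, follow. Capitals mark the bases inside the wide cKO peak, and each sequence runs 5′ to 3′ on the strand of its gene.
C130026I21Rik: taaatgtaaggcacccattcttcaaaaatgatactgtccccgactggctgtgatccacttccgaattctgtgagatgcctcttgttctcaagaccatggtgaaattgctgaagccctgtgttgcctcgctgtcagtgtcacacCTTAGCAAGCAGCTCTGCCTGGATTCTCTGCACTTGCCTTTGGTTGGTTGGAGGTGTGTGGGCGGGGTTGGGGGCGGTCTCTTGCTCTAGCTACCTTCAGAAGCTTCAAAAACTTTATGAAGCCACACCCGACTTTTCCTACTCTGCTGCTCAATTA
Gm21083: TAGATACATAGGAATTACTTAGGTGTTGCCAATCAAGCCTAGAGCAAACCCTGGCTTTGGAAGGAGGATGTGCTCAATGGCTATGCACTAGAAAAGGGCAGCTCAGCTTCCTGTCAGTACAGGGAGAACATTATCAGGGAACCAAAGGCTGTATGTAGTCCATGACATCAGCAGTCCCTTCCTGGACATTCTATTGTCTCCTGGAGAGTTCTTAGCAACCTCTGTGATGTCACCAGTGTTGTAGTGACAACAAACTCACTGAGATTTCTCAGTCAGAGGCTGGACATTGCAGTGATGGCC
Gm15319: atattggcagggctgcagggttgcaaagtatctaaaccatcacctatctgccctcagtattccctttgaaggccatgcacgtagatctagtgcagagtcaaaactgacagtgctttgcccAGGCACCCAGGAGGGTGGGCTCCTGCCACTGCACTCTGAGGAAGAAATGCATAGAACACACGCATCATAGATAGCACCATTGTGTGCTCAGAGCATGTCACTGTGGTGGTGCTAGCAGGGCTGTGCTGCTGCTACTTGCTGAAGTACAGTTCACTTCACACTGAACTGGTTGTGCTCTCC
Gm33862: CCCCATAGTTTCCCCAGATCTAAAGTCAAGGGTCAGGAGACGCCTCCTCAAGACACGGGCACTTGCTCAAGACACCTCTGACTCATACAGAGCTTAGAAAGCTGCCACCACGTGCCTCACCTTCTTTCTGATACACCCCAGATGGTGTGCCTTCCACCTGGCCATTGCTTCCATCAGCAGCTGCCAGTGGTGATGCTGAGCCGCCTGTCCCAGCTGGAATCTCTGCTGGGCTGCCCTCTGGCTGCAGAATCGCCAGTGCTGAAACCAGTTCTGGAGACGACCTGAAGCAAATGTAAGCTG
Hhipl2: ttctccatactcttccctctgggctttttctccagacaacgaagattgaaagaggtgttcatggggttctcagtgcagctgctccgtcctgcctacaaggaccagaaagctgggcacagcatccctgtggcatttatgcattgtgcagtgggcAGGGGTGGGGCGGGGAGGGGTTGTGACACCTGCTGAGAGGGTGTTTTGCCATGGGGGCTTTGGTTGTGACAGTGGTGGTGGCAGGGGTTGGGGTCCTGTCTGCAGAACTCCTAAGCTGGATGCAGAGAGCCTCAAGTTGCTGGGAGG

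The C130026I21Rik window had 157 bases in the cKO peak and 149 in the Ctrl peak. It had 300 bases inside the cKO peak for Gm21083 and for Gm33862, 180 for Gm15319 and 147 for Hhipl2. Of the 50-base words of the C130026I21Rik window, 82.1% were also found, on either strand, in promoter windows of other genes. This share was 78.1% for Gm21083 and 100% for Gm15319, and 0% for Gm33862 and Hhipl2. At least 1 such shared word was present in 18.1% of all windows. The 2 remaining windows, of the noncoding RNA genes Gm41416 and Gm15658 on chromosome 16, had a share of 0%. The start used for Gm15658 also lay inside its gene. The CG dinucleotide occurred 6 times in the C130026I21Rik window, 0 times in Gm21083, 2 times in Gm15319, 6 times in Gm33862 and 3 times in Hhipl2, against a median of 7 (quartiles 3 and 20) over all windows. The letters TATAAA, searched on both strands, were in 0 of the 7 windows and in 13.6% of all windows. The letters CCAAT, which do not overlap that motif, were in Gm21083 and Gm15319 and in 37.4% of all windows. No wide peak overlapped any of 1005 microRNA hairpins of the RefSeq table.

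Wide peaks took up 181 kb of the 1002 kb covered by the cKO list (18.1%) and 34.3 kb of the 83.5 kb covered by the Ctrl list (41.1%). Their number was 6.11 times as high in the cKO list as in the Ctrl list, and the number of narrower peaks was 17.4 times as high. The covered length was 5.28 times as high for wide peaks and 16.7 times as high for narrower ones. Median width was 565 bp (quartiles 526 and 640) in the cKO list and 615 bp (551 and 893) in the Ctrl list. Read depth was unknown from the lists, and list length depends on it, so these ratios describe the lists and not the amount of the mark.

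At the threshold, the narrowest wide cKO peaks had 500 bp in Mreg, a melanosome transport gene (fold 2.94), 500 bp near Mup-ps19 (2.99) and 502 bp in Nek7, a mitotic kinase gene (2.88). The widest cKO peaks below it had 499 bp near Gm5530 (2.86), 499 bp near Gm33424 (2.86) and 498 bp near Rpl19-ps1 (1.95). In the Ctrl list the narrowest wide peaks had 500 bp near Gm25495 (3.20), 513 bp near Gm40467 (2.45) and 516 bp near Speer8-ps1 (2.16). The widest Ctrl peaks below the threshold had 495 bp near 4930572O03Rik (2.16), 492 bp in the multidrug transporter gene Abcc1 (3.20) and 491 bp near LOC115488853 (2.49). In the cKO list the 3 folds just inside lay above the 3 just outside, and in the Ctrl list they overlapped.

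Fold enrichment here is the caller's, averaged over the peak against the local background of its own list. Wide cKO peaks ran from 1.17 to 3.51 with a median of 2.81 (95% interval 2.79 to 2.84), and narrower cKO peaks had a median of 2.83 (2.81 to 2.84). Wide Ctrl peaks ran from 1.14 to 3.55 with a median of 1.96 (1.86 to 2.23), and narrower Ctrl peaks had a median of 2.25 (2.12 to 2.42). The medians were also taken without peaks that have 3 or more others within 100 kb. In the cKO list they became 2.86 (2.84 to 2.88) for wide and 2.85 (2.83 to 2.86) for narrower peaks. In the Ctrl list they became 2.81 (2.31 to 3.55) for the 8 wide peaks left and 2.66 (2.46 to 2.85) for narrower ones. With and without such peaks, the intervals of wide and narrower peaks overlapped in both lists, so the order of the medians cannot be told. A fold under 2 was held by 51 of 287 wide cKO peaks (17.8%, against 5.56% of the whole cKO list) and by 25 of 47 wide Ctrl peaks (53.2%, against 39.4% of the whole Ctrl list). The 16 cKO peaks of 1000 bp or more had a median fold of 1.44, and the 190 of 500 to 599 bp one of 2.83. In the Ctrl list the 7 peaks of 1000 bp or more had a median of 1.51 and the 20 of 500 to 599 bp one of 2.41. Since width and fold came from the same peak call that chose the members, these values are a description.

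**Figure D1:**
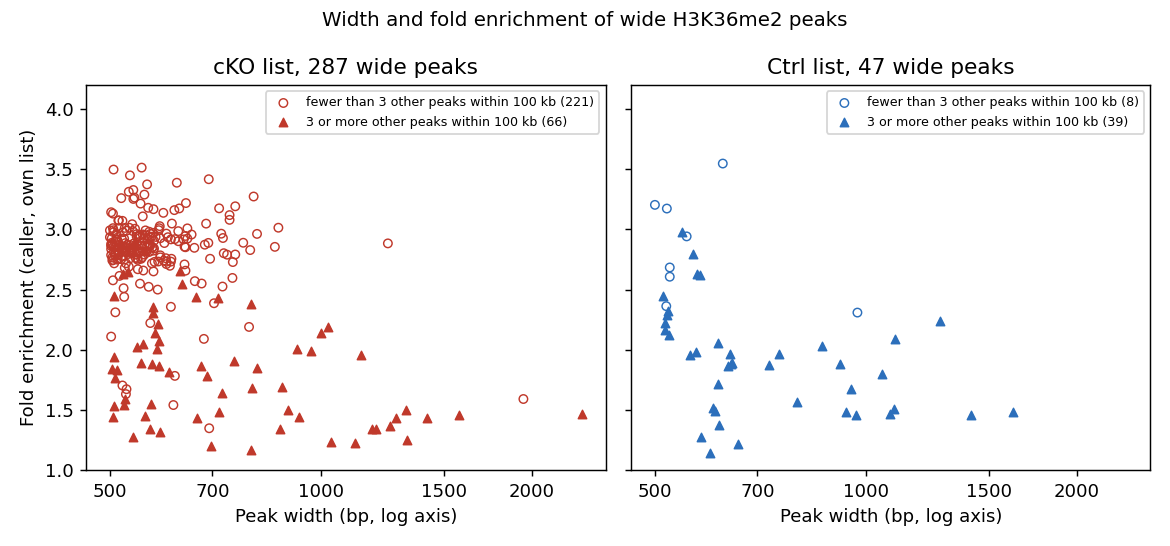
Fold enrichment against width (bp, log axis) for each wide peak of the cKO list (left) and the Ctrl list (right); filled triangles have 3 or more other peaks of either list within 100 kb, open circles have fewer. Open circles of the cKO list gather near a median fold of 2.86, and most filled triangles of both lists lie below a fold of 2.

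Most wide peaks had a high q-value, the p-value adjusted over the genome by the caller. It was under 0.05 in 38 of 287 wide cKO peaks (13.2%, 9.80 to 17.7), against 18.4% of the whole cKO list, and in 5 of 47 wide Ctrl peaks (10.6%, 4.63 to 22.6), against 9.96% of the whole Ctrl list. It was 0.5 or higher in 179 wide cKO peaks (62.4%) and in 32 wide Ctrl peaks (68.1%). The same was true of 49.0% of narrower cKO peaks and 67.9% of narrower Ctrl peaks. Of the 38 wide cKO peaks with a q-value under 0.05, 32 had a fold under 2, 30 had 3 or more other peaks within 100 kb and 10 were inside protein-coding genes. Among the 603 narrower cKO peaks below the same q-value, 54 had a fold under 2 and 261 were inside protein-coding genes. The 5 wide Ctrl peaks with a q-value under 0.05 lay outside annotated genes.

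Wide peaks were divided by their neighbourhood. A peak was called grouped when 3 or more others, from the cKO or Ctrl list, lay within 100 kb, and scattered otherwise. Such neighbours were present around 66 wide cKO peaks (23.0%, 18.5 to 28.2), against 8.25% of the whole cKO list, and around 39 wide Ctrl peaks (83.0%, 69.9 to 91.1), against 49.8% of the whole Ctrl list. Grouped wide peaks had a median fold of 1.82 in the cKO list and 1.88 in the Ctrl list. Scattered wide peaks had a median fold of 2.86 (221 peaks) in the cKO list and 2.81 (8 peaks) in the Ctrl list. Their median −log10 q was 0.117 in the cKO list and 0 in the Ctrl list, and that of the grouped ones was 1.01 and 0.145. Grouped wide peaks were 1.69 times as many in the cKO list as in the Ctrl list, and scattered ones 27.6 times as many. Another wide peak of the same list lay within 100 kb of 59 of 287 wide cKO peaks (20.6%). The same held for 32 of the 46 wide Ctrl peaks with another wide peak on their chromosome (69.57%). Another narrower peak lay within 100 kb of 1025 of 3204 narrower cKO peaks (31.99%). This held for 70 of 184 narrower Ctrl peaks (38.04%). The wide share was thus the lower one in the cKO list and the higher one in the Ctrl list. Narrower peaks were more numerous in both lists, and these shares were not adjusted for that.

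**Figure D2:**
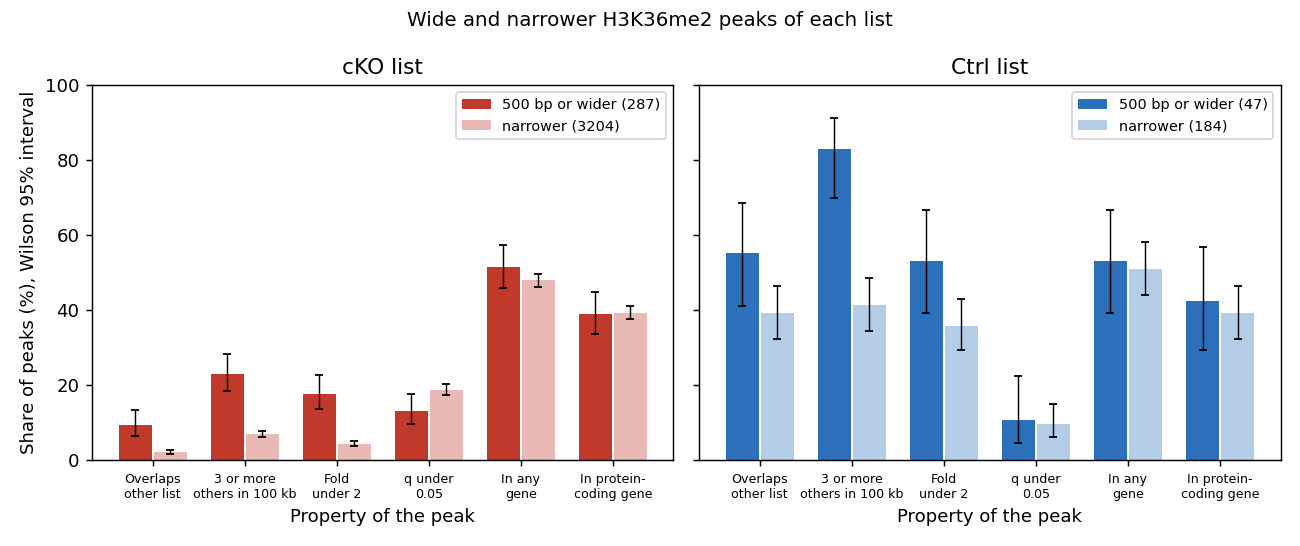
Share of wide (dark bars) and narrower (light bars) peaks, in percent, that have each property named under the axis, for the cKO list (left) and the Ctrl list (right), with Wilson 95% intervals for counting error. Grouping stands at 23.0% of wide and 6.93% of narrower cKO peaks and at 83.0% of wide and 41.3% of narrower Ctrl peaks, and the shares in genes differ little between widths.

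Wide peaks less than 100 kb apart were joined into 251 regions, of which 231 held a single wide peak. The 11 regions with 3 or more held 49 wide cKO peaks (17.1%) and 36 wide Ctrl peaks (76.6%). The largest was that of Sfi1, which encodes a centrin-binding centrosomal protein, and of the neighbouring Pisd-ps1, a transcribed pseudogene (chr11:3127012-3200027). It held 11 wide peaks in either list, over 9245 bp in the cKO list and 10707 bp in the Ctrl list. Their folds ran from 1.43 to 1.64 in the cKO list and from 1.37 to 1.68 in the Ctrl list. The q-value was under 0.05 in 5 of the 11 cKO peaks and in 0 of the 11 Ctrl peaks. Sfi1 itself held 10 wide cKO peaks and 9 wide Ctrl peaks, and it had the highest number of wide peaks of any gene in either list. Its widest Ctrl peak, of 1624 bp (chr11:3183804-3185427, fold 1.48), overlapped a cKO peak of 723 bp (fold 1.64) and another of 401 bp (fold 1.46).

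On chromosome 1 a region with Gm38510 and C130026I21Rik (chr1:84993908-85276922) held 8 wide cKO peaks with a median fold of 1.86 and 3 wide Ctrl peaks with a median fold of 2.12. Gm38510 had 6 and C130026I21Rik 5 of the wide cKO peaks, and both genes shared the same 2 wide Ctrl peaks. Beside it, the region of Sp140 and Sp110, which encode chromatin-binding nuclear body proteins (chr1:85498613-85623989), held 4 wide peaks in either list, with median folds of 1.98 in the cKO list and 2.01 in the Ctrl list. Within it Sp140 held 2 wide cKO and 3 wide Ctrl peaks, and Sp110 held 1 and 2. The neighbouring genes Gm7592 and Gm2427, which overlap each other, held, with Gm2666, the same 2 wide cKO peaks and 0 wide Ctrl peaks.

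Chromosome 5 carried 2 regions among genes and pseudogenes of the Speer family, named for spermatogenesis-associated glutamate-rich proteins. One (chr5:15469875-15689621), with Gm21083 and Speer4cos, held 4 wide cKO peaks with a median fold of 2.00 and 5 wide Ctrl peaks with a median fold of 2.09. The other (chr5:14900152-15040236), with Speer8-ps1, held 2 wide cKO peaks and 5 wide Ctrl peaks, with median folds of 2.32 and 1.96. These 2 regions were the ones, among the 6 with most wide peaks, in which the Ctrl list held more wide peaks than the cKO list.

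The region of chromosome 9 at the start of its assembled sequence (chr9:3000331-3035189) held 9 wide cKO peaks and 2 wide Ctrl peaks outside annotated genes, the nearest being the microRNA gene Mir101c. Its folds were among the lowest, at 1.17 to 1.49 in the cKO list and 1.14 to 1.22 in the Ctrl list, while its −log10 q ran from 23.4 to 234 in the cKO list and from 17.8 to 47.8 in the Ctrl list. A low fold at a very small q-value was also found for the highest −log10 q of the wide peaks, 752 at a fold of 1.28 (cKO, chr2:98666677-98667216), and for 2 peaks of chromosome 14 near Gm9637. Of these, that at chr14:19416955-19418211 had a fold of 1.37 with a −log10 q of 488, and that at chr14:19418754-19419278 had a fold of 1.59 with one of 457. The 5 wide Ctrl peaks of highest −log10 q were the 2 of chromosome 9 and 1 near Gm5960 on chromosome 15 (2.58, fold 1.28), 1 near Gm10354 (2.55, fold 2.06) and 1 near Gm21847 (1.89, fold 1.88), both on chromosome 5. Mapping to repeated sequence was not analysed here, so its part in these values was not tested.

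Chromosome 8 had 3 more of the 11 regions. That near Gm20778 and Gm21811 (chr8:20028788-20157393) held 3 wide cKO peaks and 1 wide Ctrl peak, and that with Gm15319 (chr8:20305983-20363332) held 2 and 1. That at the small gene Gm51572 (chr8:55118726-55122614) held 2 in either list, including the widest Ctrl peak without a cKO overlap, of 1055 bp (fold 1.80). The other two were 3 wide cKO peaks near Gm3318 and Gm30674 at the start of chromosome 10 (chr10:3109605-3116866), with folds of 1.32 to 1.91 and 0 wide Ctrl peaks, and a region near Gm5960 and the neutrophil antigen gene Ly6g on chromosome 15 with 1 wide cKO and 2 wide Ctrl peaks.

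**Figure D3:**
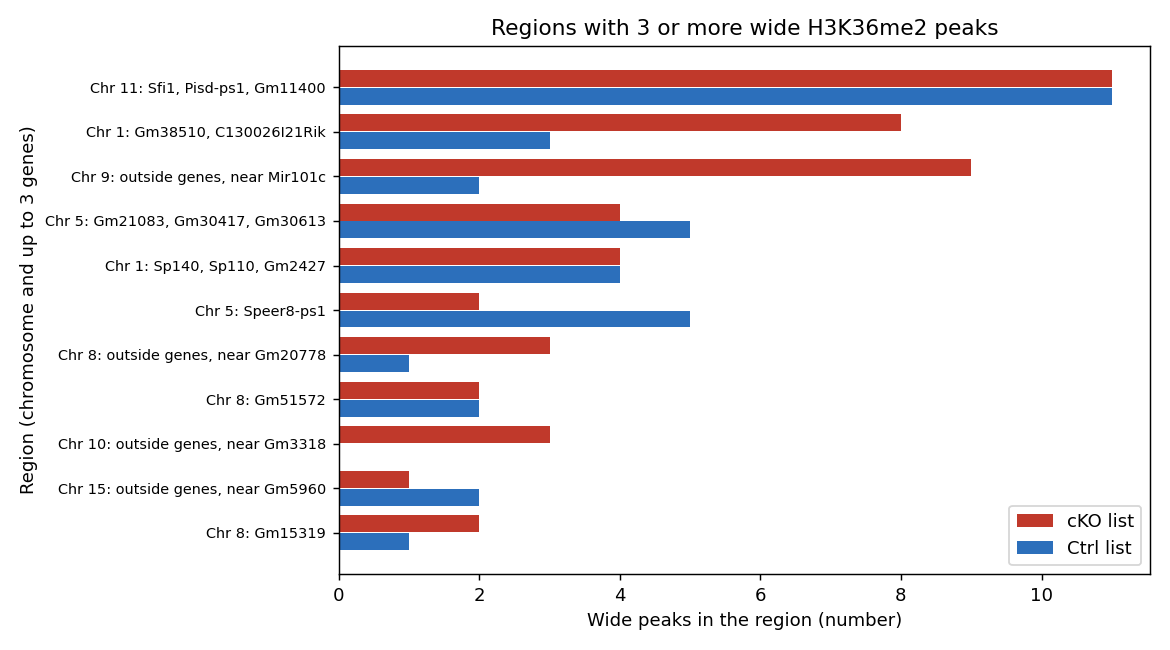
Number of wide peaks of the cKO list (upper bar of each pair) and the Ctrl list (lower bar) in the 11 regions with 3 or more wide peaks, each named by its chromosome and up to 3 genes that hold wide peaks, or by the nearest gene. The Sfi1 region has 11 in either list, and the chromosome 9 region has 9 in the cKO list and 2 in the Ctrl list.

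At an overlap of at least 1 bp, 27 of 287 wide cKO peaks met a Ctrl peak (9.41%, 6.55 to 13.3), against 2.81% of the whole cKO list and 71 of 3204 narrower cKO peaks (2.22%, 1.76 to 2.79). Of the wide Ctrl peaks, 26 of 47 met a cKO peak (55.3%, 41.2 to 68.6), against 42.4% of the whole Ctrl list and 72 of 184 narrower Ctrl peaks (39.1%, 32.4 to 46.3). A wide interval meets a 1 bp rule more easily. By bases, 7.53% of wide cKO sequence and 2.29% of narrower cKO sequence was shared, as was 41.0% of wide and 37.4% of narrower Ctrl sequence.

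All 27 shared wide cKO peaks were grouped, with a median fold of 1.55, and the 260 without a Ctrl overlap had a median fold of 2.83. Among the 221 scattered wide cKO peaks 0 met a Ctrl peak, a count that allows a share of up to 1.36% (3 counts), and 38 of 2982 scattered narrower cKO peaks did (1.27%). That pair of shares cannot be told apart at this number of peaks. An overlapping Ctrl peak counts among the 3 neighbours, so shared peaks met the grouping rule more easily. Of the 26 shared wide Ctrl peaks 23 were grouped, and the other 3 lay near Gm40034 on chromosome 2, near Speer4f1 on chromosome 5 and in Cryz, a quinone reductase gene, on chromosome 3.

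A wide peak of one list met a wide peak of the other in 16 pairs, over 10154 bp. Pdia3, which encodes a protein disulfide isomerase of the endoplasmic reticulum, had the highest folds of these pairs. Its cKO peak spanned 629 bp (chr2:121436567-121437195, fold 2.65) and its Ctrl peak 567 bp from the same first base (fold 2.80). Near Gm40467 on chromosome 8 a cKO peak of 577 bp (fold 2.31) met a Ctrl peak of 513 bp (fold 2.45). In Sp140 a cKO peak of 504 bp (fold 1.84) met a Ctrl peak of 517 bp (fold 2.23), and across the overlap of Sp110 and Sp140 a cKO peak of 925 bp (fold 2.01) met a Ctrl peak of 751 bp (fold 1.96). The pair that reached the C130026I21Rik promoter window, whose sequence is given above, had 587 bp at a fold of 1.86 in the cKO list. Its Ctrl peak had 645 bp at a fold of 1.89.

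Fold was higher in the cKO list in 9 of the 16 pairs and in the Ctrl list in 7, with medians of 1.73 in the cKO list and 1.69 in the Ctrl list. The cKO peak was the wider of the pair in 8 of 16. The −log10 q was higher in the cKO list in 14 of 16, with medians of 0.749 and 0.316. In a further 12 pairs a wide cKO peak met a narrower Ctrl peak, among them the widest cKO peak, of 2360 bp in the noncoding RNA gene 2700054A10Rik (chr17:13550718-13553077, fold 1.47), which met a Ctrl peak of 290 bp (fold 1.28). In 11 pairs a wide Ctrl peak met a narrower cKO peak. Each list was scored against its own background and depth, so the differences of a pair were not tested.

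**Figure D4:**
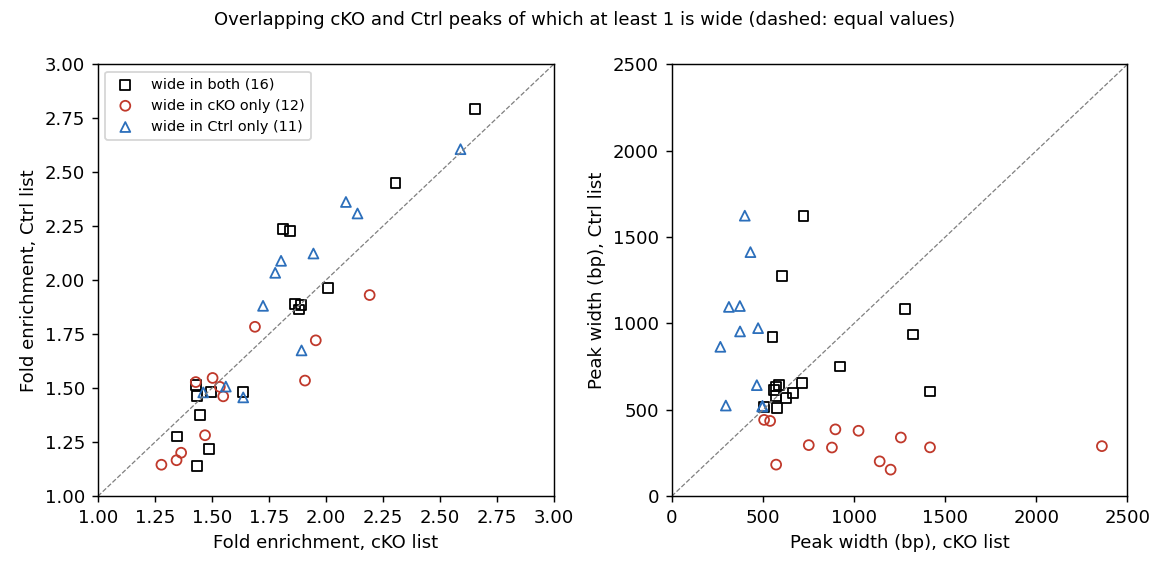
Fold enrichment (left) and width in bp (right) of the 39 overlapping pairs with at least 1 wide peak, cKO list on the horizontal axis and Ctrl list on the vertical axis, with the dashed line at equal values; squares are wide in both lists, circles in the cKO list alone and triangles in the Ctrl list alone. Folds follow the line within differences of −0.42 to 0.37 (cKO minus Ctrl), and widths of the same pair differ more.

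Scattered wide peaks made up the bulk of the cKO list's wide rows. Of the 221, 206 had a fold of 2.5 or more, 209 had a −log10 q under 1 and 156 had no other peak of either list within 100 kb. Of 2982 scattered narrower cKO peaks, 2089 had no other peak within 100 kb, a share near that of the wide ones. The median fold was 2.86 in scattered wide and 2.85 in scattered narrower cKO peaks, and the median −log10 q was 0.117 and 0.299. The highest fold of all wide cKO peaks was 3.51, in Aig1, which encodes a hydrolase of fatty acid esters (chr10:13784901-13785455, −log10 q 1.28). It was followed by peaks near Gm18455 (3.50), near Gm6029 (3.45), near Gm26058 (3.42) and near Calcrl, a receptor gene of the calcitonin family (3.39). Hhipl2, a relative of the hedgehog-interacting protein gene, came seventh (chr1:183419151-183419690, fold 3.33, −log10 q 0.533). Bases of this peak within a promoter window are given above. The 10 highest wide folds in the cKO list, down to 3.27 near Rps12-ps16 on the X chromosome, all had a q-value above 0.05.

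Wide scattered peaks with a q-value under 0.05 numbered 8 in the cKO list and 0 in the Ctrl list. Their folds, from 1.35 to 2.11, lay below the median of 2.86 of scattered wide cKO peaks. The pseudogene Gm20590 held the second widest cKO peak, of 1947 bp (chr13:74528689-74530635, fold 1.59, −log10 q 48.4). Near Aadac, an arylacetamide deacetylase gene, a peak of 619 bp had a fold of 1.78 and a −log10 q of 28.0 (chr3:60045175-60045793). The noncoding RNA gene Gm40237 held 1 with a fold of 1.35 and a −log10 q of 14.9. Smo, which encodes the Hedgehog signal transducer Smoothened, held 1 of 616 bp with a fold of 1.54 and a −log10 q of 14.1 (chr6:29747912-29748527). Dlgap2, a postsynaptic scaffold gene, held 1 of 528 bp with a fold of 1.67 and a −log10 q of 4.92 (chr8:14306825-14307352). The remaining 3 lay near Gm12223 (fold 1.63, −log10 q 5.95), near Eci2 (2.11 and 2.11) and near Vmn1r-ps137 (1.70 and 1.59).

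In the Ctrl list the 8 scattered wide peaks lay near Defa21, a defensin gene on chromosome 8 (chr8:21002284-21002908, 625 bp, fold 3.55, the highest of wide Ctrl peaks), near Gm25495 (3.20), near the cyclooxygenase gene Ptgs1 (3.17), near Fbxo27 (2.94), in Sprr2a1, a cornified envelope gene (2.68), in Cryz (2.61), near Gm40034 (2.36) and near Speer4f1 (2.31). None of the 8 had a q-value under 0.05, and their −log10 q ran from 0 to 1.22. Of these 8, 3 met a narrower cKO peak and 0 met a wide one.

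By location, 148 of 287 wide cKO peaks lay in an annotated gene (51.6%, 45.8 to 57.3), against 48.3% of the whole cKO list, and 25 of 47 wide Ctrl peaks did (53.2%, 39.2 to 66.7), against 51.5% of the whole Ctrl list. Protein-coding genes held 112 wide cKO peaks (39.0%, 33.6 to 44.8), against 39.3% of the list, and 20 wide Ctrl peaks (42.6%, 29.5 to 56.7), against 39.8% of the list. These shares lay near those of the whole lists. Of the wide cKO peaks outside protein-coding genes, 26 lay in noncoding RNA genes and 8 in pseudogenes, and of such Ctrl peaks 2 and 3. Over the whole lists these counts were 226 and 72 of 3491 cKO peaks and 13 and 11 of 231 Ctrl peaks. The 139 wide cKO peaks outside genes were a median of 16.6 kb from the nearest gene boundary, up to 355 kb, and the 22 such Ctrl peaks a median of 9.69 kb, up to 107 kb. The nearest start listed in the promoter table, which left chromosome 18 out, lay a median of 30.9 kb from wide cKO peaks (28.7 kb from narrower ones). It lay 16.9 kb from wide Ctrl peaks (23.5 kb from narrower ones). Of the 78 wide cKO peaks whose position along a single protein-coding gene could be set, 35 were nearer to the start of the gene than to its end (44.9%), and 495 of 991 narrower cKO peaks were (49.9%).

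Of 21883 protein-coding genes, 109 held a wide cKO peak (0.498%) and 9 held a wide Ctrl peak (0.0411%), and 7 held both: Sfi1, Gm38510, C130026I21Rik, Sp140, Sp110, Gm51572 and Pdia3. The noncoding RNA gene Snhg14, the long transcript of the imprinted Prader-Willi and Angelman region, and Pisd-ps1 also held wide peaks of both lists. Snhg14 had 2 in the cKO list, with folds of 2.22 and 2.38, and 1 in the Ctrl list, with a fold of 1.88. At least 2 wide cKO peaks were found in 7 protein-coding genes, which were Sfi1, Gm38510, C130026I21Rik, Sp140, Gm15319, Gm2427 and Gm7592. At least 2 wide Ctrl peaks were found in 6, namely Sfi1, Sp140, Gm38510, C130026I21Rik, Gm51572 and Sp110. Median gene length was 66.8 kb for genes with a wide cKO peak and 77.8 kb for genes with narrower cKO peaks alone.

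Some genes with known roles in neurons held wide cKO peaks, and those named here are examples chosen after their values were seen, not a full or fixed list. They were Cntnap2, a neurexin-family gene (chr6:46825485-46826103, 619 bp, fold 2.92), its relative Cntnap4 (chr8:112651078-112651629, fold 2.93), the potassium channel gene Kcnh7 (chr2:62874704-62875249, fold 2.96) and Celf2, which encodes an RNA-binding splicing factor (chr2:6840337-6840874, fold 3.04). Further examples were Sh3gl2, which encodes endophilin A1 of synaptic vesicle recycling (chr4:85236006-85236688, 683 bp, fold 2.87), Ppfia1, a liprin gene (fold 2.70), the adhesion gene Lsamp (fold 2.86) and the synaptic organizer gene Il1rapl1 (fold 2.74). The −log10 q of these 8 ran from 0.0339 in Lsamp to 0.490 in Celf2, whereas Dlgap2, described above, had 4.92 at a fold of 1.67. The 8 genes were 77.0 kb (Ppfia1) to 2241 kb (Cntnap2) long, against a median of 66.8 kb for protein-coding genes with a wide cKO peak. A longer gene meets a peak more easily. No share over all neuronal genes was taken, so these examples are no result about such genes. The 9 Ugt1a genes of glucuronidation among the 109 overlap one another and were all counted from a single peak of 587 bp (chr1:88218722-88219308, fold 2.07).

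Nsd1, the targeted gene (chr13:55209782-55318325), held 0 peaks in either list. The nearest wide cKO peak was 17.2 Mb away, and the Ctrl list had 0 peaks on chromosome 13. Of 21 genes for writers, erasers and readers of H3K36 methylation, 0 held a wide peak in either list, and 2, the demethylase gene Kdm2b and Kdm8, held a narrower cKO peak. Over all protein-coding genes 0.498% held a wide cKO peak, 0.0411% a wide Ctrl peak, 5.11% a narrower cKO peak and 0.242% a narrower Ctrl peak, so a count of 0 wide peaks in a list of this size is no result about its genes. The same holds for the count of 0 wide peaks in 19 excitatory neuron genes, 11 inhibitory neuron markers, 8 astrocyte, 10 oligodendrocyte and 9 microglial and vessel markers, in both lists. Narrower cKO peaks lay in 1 of the excitatory neuron genes (Foxp1), 1 astrocyte marker (Gpc5), 2 oligodendrocyte markers (Mog and St18) and 1 microglial marker (Inpp5d). Of 14 genes of multicopy clusters, a list taken from earlier results of these data, 6 held a wide cKO peak and 5 a wide Ctrl peak.

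Across chromosomes, wide cKO peaks were most numerous on chromosome 1 with 34, chromosome 5 with 23 and chromosomes 9 and 11 with 21 each. Relative to all peaks of a chromosome, wide ones were 14.3% on chromosome 14 and 13.3% on chromosome 1, against 3.80% on chromosome 3 and 2.97% on chromosome 18. Wide Ctrl peaks were on 10 chromosomes, led by 11 each on chromosomes 5 and 11 and 7 on chromosome 1. The X chromosome held 9 wide peaks among 164 cKO peaks and 0 among 7 Ctrl peaks. The Y chromosome held 0 wide peaks among 12 cKO peaks, and the Ctrl list had 0 peaks there. The counts of 0 wide peaks on these chromosomes thus rest on few or no peaks.

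**Figure D5:**
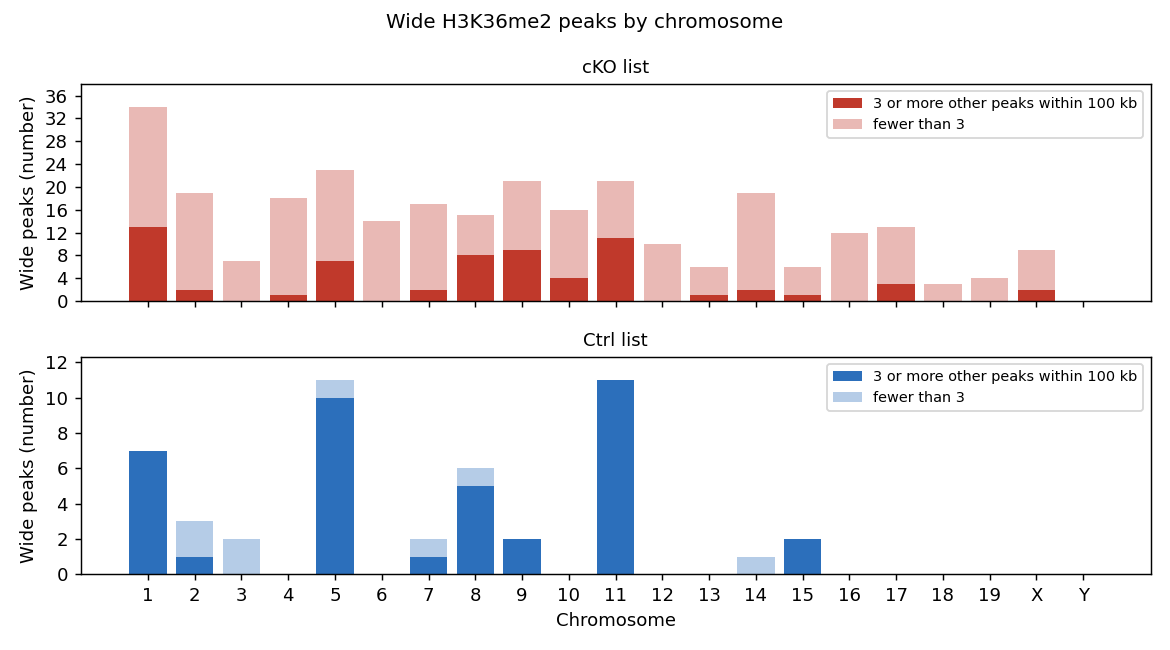
Number of wide peaks on each chromosome in the cKO list (top) and the Ctrl list (bottom), on separate vertical scales; dark parts of a bar are peaks with 3 or more others within 100 kb and light parts are the rest. Chromosomes 5 and 11 each have 11 wide Ctrl peaks, and wide cKO peaks occur on every chromosome except Y.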

How the data were processed

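The authors deposited 1 broad peak list per genotype, and the labels of all 6 libraries of a genotype name the same list. Cutadapt, Bowtie2 2.4.4, MACS2 and mm10 are named, without roles or commands, per the submitters' processing notes. The peak names in the deposited Ctrl list call it WT. Each deposited row gives a position, a score (not used), a fold enrichment (a ratio) and a −log10 q of the caller, all as the authors' values; the −log10 p, planned as a further description, was not used. Depth per library was unknown.

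Width was the end minus the start of a row, and positions were turned to 1-based. Genes came from the RefSeq table of GRCm38.p6 (49939 genes on chromosomes 1 to 19, X and Y) and promoter sequences from the RefSeq table of that build. Peaks were compared at an overlap of at least 1 bp. Shares carry Wilson 95% intervals and medians intervals from order statistics. No test was run, because lists carry no replicates. The width rule, the lists of genes and the grouping were chosen with earlier results of these data known. Peaks were named from among the 10 widest, the 10 of highest fold and the 5 of highest −log10 q in each list. Not all of these were named. Also named were genes with at least 2 wide peaks, genes of the fixed lists, and peaks at the threshold. Others are given where a count was small, for a region or overlapping pair, or as examples. The examples with roles in neurons were chosen after their values were seen. The procedures for overlap, neighbours, joining and width were tested on simulated peaks, and those for the 95% intervals were not. Alternatives were other widths, a −log10 q of at least 2, autosomes alone, joined peaks, lists without grouped peaks, other overlap rules and other gene windows. Calculations used Python 3.11.15, numpy 2.4.6 and pandas 2.3.3.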

Additional observations from a re-analysis of the deposited data

How the results depend on the processing

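Of 94 alternative values, 39 stayed within 1.5 times the reported count or within the reported interval and 55 moved. Autosomes alone and joining peaks moved none of the values they could give. At a width of 400 bp or more, the number of wide peaks was 660 (cKO), the covered length was 349 kb (cKO), the overlapped share was 6.36% (cKO), and the median −log10 q was 0.125 (cKO). At 700 bp or more, the number of wide peaks was 50 (cKO) and 16 (Ctrl), the covered length was 48.3 kb (cKO) and 16.5 kb (Ctrl), the overlapped share was 28% (cKO) and 75% (Ctrl), the share in genes was 81.2% (Ctrl), the median fold was 2.08 (cKO) and 1.74 (Ctrl), and the median −log10 q was 0.735 (cKO). At 1000 bp or more, the number of wide peaks was 16 (cKO) and 7 (Ctrl), the covered length was 21.4 kb (cKO) and 8.65 kb (Ctrl), the overlapped share was 50% (cKO) and 85.7% (Ctrl), the share in genes was 43.8% (cKO) and 100% (Ctrl), the median fold was 1.44 (cKO) and 1.51 (Ctrl), and the median −log10 q was 19 (cKO). With −log10 q at 2 or higher, the number of wide peaks was 25 (cKO) and 4 (Ctrl), the covered length was 23 kb (cKO) and 2.45 kb (Ctrl), the overlapped share was 32% (cKO) and 75% (Ctrl), the share in genes was 24% (cKO) and 0% (Ctrl), the median fold was 1.45 (cKO) and 1.25 (Ctrl), and the median −log10 q was 28 (cKO) and 10.2 (Ctrl). Without grouped peaks, the number of wide peaks was 8 (Ctrl), the covered length was 4.74 kb (Ctrl), the overlapped share was 0% (cKO) and 37.5% (Ctrl), the share in genes was 25% (Ctrl), the median fold was 2.86 (cKO) and 2.81 (Ctrl), and the median −log10 q was 0.117 (cKO) and 0 (Ctrl). Requiring 50% of the wide peak left 6.27% (cKO) and 38.3% (Ctrl) overlapped, a reciprocal 50% left 5.23% and 36.2%, and wide peaks of the other list alone left 5.57% and 34.0%. Protein-coding genes alone held 39.0% of wide cKO peaks, and genes widened by 5000 bp held 63.4%. Grouping, with alternatives chosen after the data were seen, fell to 61.7% of wide Ctrl peaks when neighbours of the same list alone were counted, and stayed within its interval at 50 kb and 200 kb. The median fold of wide cKO peaks was below that of narrower ones at 400, 500, 700 and 1000 bp, which are nested sets. At 500 bp the intervals of the medians, 2.79 to 2.84 and 2.81 to 2.84, overlapped, so the order cannot be told there. No intervals were taken at the other widths. Without grouped peaks the medians were 2.86 in wide and 2.85 in narrower cKO peaks, and 2.81 and 2.66 in Ctrl peaks. The intervals of these medians overlapped in both lists, so their order cannot be told. The share of shared wide cKO peaks rose with the width threshold and was 0 without grouped peaks. The causes of these moves were not tested, beyond the fewer peaks that stricter rules leave. No paired analysis was possible because the single peak list of a genotype gives nothing by replicate, so leaving out replicates could not be run either. Unknown depth limits every count.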
